A study of Homo sapiens with 22 samples.

Results

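The 9 genes described here belong to the TGF-beta and BMP pathway and were followed in Caco-2 cells, which come from a human colorectal adenocarcinoma. They were the targets ID1, ID2 and ID3, the inhibitory SMADs SMAD6 and SMAD7, and the ligands BMP2, BMP4, TGFB1 and GDF15. These 9 of the 61487 genes of the count table were chosen as a named list with earlier results of these data known, as was the wider list below. Their medians and shares beside those of all genes are therefore descriptive. All 9 were among the 20373 genes tested, which needed more than 5 counts in 3 samples or more. Cells were grown for 48 h and then exposed for 48 h to medium in which 10% was replaced by the treatment. PBS-treated cells (PBS, n = 4) were the controls. FWctl cells (n = 6, and a seventh shown apart) received faecal water (FW), the supernatant of faeces homogenized in PBS and centrifuged, from untreated mice. FWatb cells (n = 7) received FW from the same mice once antibiotics had depleted their microbiota, and ATB cells (n = 4) received the antibiotic cocktail itself. In the drinking water of the mice the cocktail held meropenem at 0.25, vancomycin at 0.5 and neomycin at 1 g/L. The paper does not state the final concentration in the medium of the cells. The medium of every group, PBS included, also held serum and an antibiotic-antimycotic mix, so no group was free of antibiotics. Only a single cell line was used, and no source states that samples of a group came from separate experiments, so the p-values measure the spread between these samples.

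TGF-beta, activins and BMPs are secreted ligands that bind pairs of serine/threonine kinase receptors. BMP receptors phosphorylate SMAD1, SMAD5 and SMAD9, and TGF-beta and activin receptors phosphorylate SMAD2 and SMAD3, which enter the nucleus with SMAD4. The ID genes, which encode inhibitors of basic helix-loop-helix transcription factors, and the inhibitory SMAD6 and SMAD7, which feed back on the receptors, are among the classical immediate targets. In the intestine BMP signals are known to rise from the crypt to the villus and to restrain proliferation, and TGF-beta is known to arrest epithelial growth. GDF15 is a distant relative of the family, induced by cell stress, that signals through GFRAL.

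The libraries held between 7118302 and 18726967 counts, with a median of 10596342 over the 21 samples tested. In a principal component analysis of 500 genes, FWctl replicate 1 lay at 9.12 on the first component, between the other FWctl samples (36.1 to 41.0) and the PBS, FWatb and ATB samples (-19.1 to -13.4). The study left an unnamed FWctl sample out as an outlier, and replicate 1 was taken to be that sample and was left out of means and tests. Counts on the ribosomal RNA gene array divided the 22 libraries into 14 with 1.87% to 8.19% of their counts there and 8 with 0.0163% to 0.0805%. All 7 FWatb libraries were of the first kind, against 4 of 6 FWctl, 2 of 4 PBS and 1 of 4 ATB libraries, and the labels name no batch. The epithelial markers EPCAM, CDH1, VIL1 and CDX2 had group means between 954 and 7862 normalized counts, and of 12 epithelial markers 9 had a mean above 100 in every group. CDX1 was near 0.

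The RefSeq promoters (GRCh38.p14; 250 bases before the start to 50 after it) matched 8 of the 9 members. Motifs known from SMAD-regulated genes were sought on both strands, in members and all promoters alike only in the window of 250 bases before the start. They are shown for ID1, ID3, SMAD6, TGFB1 and GDF15. SMAD7 moved in the same directions as ID1, ID3, SMAD6 and TGFB1 in FWctl against PBS and FWatb against FWctl, but its letters are not printed. The palindrome GTCTAGAC was present in 0.182% of 35116 promoters, the short SMAD-binding element CAGAC in 38.0% and the GC element GGCGCC in 16.4%. The ATF4 composite letters TGATGNAA were present in 3.14%. The palindrome does not hold the letters CAGAC on either strand, so no match was counted under both. Matches are in capitals in the 250 bases before the start of ID1 (chr20:31605039-31605288, plus strand), ID3 (chr1:23559502-23559751, minus strand), SMAD6 (chr15:66701986-66702235, plus strand), TGFB1 (chr19:41353923-41354172, minus strand) and GDF15 (chr19:18385908-18386157, plus strand).
ID1: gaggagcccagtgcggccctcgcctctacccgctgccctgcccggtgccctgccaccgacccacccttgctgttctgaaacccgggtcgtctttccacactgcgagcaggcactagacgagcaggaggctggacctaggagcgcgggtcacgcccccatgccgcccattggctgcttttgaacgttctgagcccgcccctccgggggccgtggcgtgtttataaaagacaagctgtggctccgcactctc
ID3: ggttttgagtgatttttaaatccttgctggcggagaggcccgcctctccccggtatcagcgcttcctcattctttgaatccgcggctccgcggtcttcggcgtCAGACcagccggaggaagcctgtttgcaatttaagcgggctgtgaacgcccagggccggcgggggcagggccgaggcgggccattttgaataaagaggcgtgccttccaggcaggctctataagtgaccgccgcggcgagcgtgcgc
SMAD6: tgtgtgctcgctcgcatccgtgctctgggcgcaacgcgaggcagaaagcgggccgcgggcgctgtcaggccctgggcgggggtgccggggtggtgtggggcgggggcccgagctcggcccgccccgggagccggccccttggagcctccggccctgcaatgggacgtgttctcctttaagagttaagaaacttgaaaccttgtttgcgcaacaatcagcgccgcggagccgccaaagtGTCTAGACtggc
TGFB1: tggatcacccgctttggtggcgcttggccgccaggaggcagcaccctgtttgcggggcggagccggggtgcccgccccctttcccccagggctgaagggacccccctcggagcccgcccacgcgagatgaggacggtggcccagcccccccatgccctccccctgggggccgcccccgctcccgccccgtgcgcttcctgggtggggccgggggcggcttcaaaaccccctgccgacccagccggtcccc
GDF15: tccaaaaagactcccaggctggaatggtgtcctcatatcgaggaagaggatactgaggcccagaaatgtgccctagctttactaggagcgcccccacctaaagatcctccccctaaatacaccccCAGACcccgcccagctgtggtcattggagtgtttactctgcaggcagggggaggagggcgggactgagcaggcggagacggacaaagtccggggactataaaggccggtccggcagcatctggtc
SMAD6 held the palindrome, starting 12 bases before the start. ID3 and GDF15 each held a CAGAC element, which is as common as given above. The windows of ID1, ID2 and TGFB1 held none of these letters. SMAD7 and BMP4 have 3 annotated starts each, and 2 of the 3 windows of each held a CAGAC element, with a GC element in a BMP4 window. The ATF4 composite letters were in no window of a member. A match describes letters in a window and is not a measured binding site.

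The members differed in level. Per length, as CPM per kilobase of exon, ID2 was highest in PBS cells at 34.0, followed by ID1 at 15.6, GDF15 at 14.2, BMP2 at 5.52 and BMP4 at 3.73. SMAD7 (2.88), ID3 (1.68), SMAD6 (1.31) and TGFB1 (1.06) were lower. The values below are normalized counts, which are the raw counts divided by the effective library size and scaled to its mean. They compare samples for 1 gene and not genes with each other. In FWctl cells 8 of the 9 members had their lowest group mean, and GDF15 had its highest. For ID2, BMP2 and BMP4 the FWctl and PBS values overlapped. The share of all genes with their lowest mean in FWctl was not computed, so this count has no background beside it. Changes in RNA per cell and in the number of cells expressing a gene cannot be told apart in these bulk samples.

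**Figure D1:**
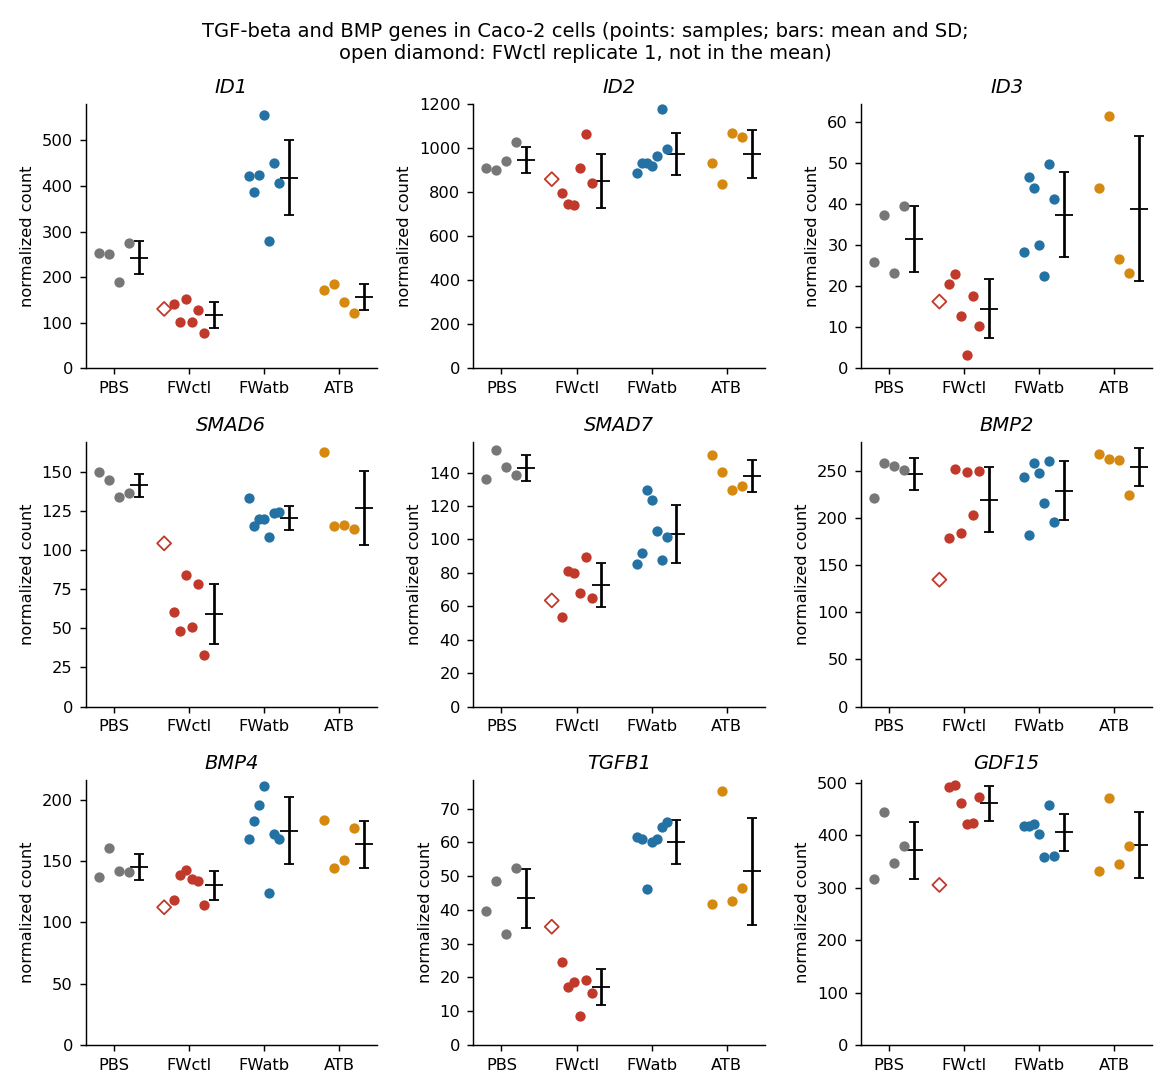
Normalized counts (vertical axes, from 0) of the 9 members in each sample, by group, with mean and SD as bars. ID1, ID3, SMAD6, SMAD7 and TGFB1 were lower in all 6 FWctl samples than in any PBS sample, and ID1 was higher in all 7 FWatb samples than in any PBS sample.

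ID1 was the member that moved in each of the 5 comparisons. ID1 (ENSG00000125968) lies at chr20:31605283-31606515 on the plus strand (GRCh38). PBS replicates 1 to 4 had 253.5, 250.6, 190.1 and 274.1 normalized counts, and ATB replicates 1 to 4 had 171.6, 184.9, 144.5 and 120.9. The 6 FWctl samples ran from 76.8 through a median of 115 to 152.5, and the 7 FWatb samples from 278 through 423 to 556. FWatb lay above every other group without overlap, PBS lay between, and FWctl and ATB overlapped each other below. By group mean, ID1 was 117 ± 28.3 (SD, n = 6) in FWctl, 155 ± 28.5 (SD, n = 4) in ATB, 242 ± 36.2 (SD, n = 4) in PBS and 418 ± 82.4 (SD, n = 7) in FWatb cells.

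For the other ID genes the spread was larger or the change smaller. ID3 (ENSG00000117318, chr1:23557926-23559501, minus strand) had 25.9, 37.4, 23.3 and 39.6 normalized counts in the PBS samples. Its FWctl values ran from 3.38 through a median of 15.2 to 22.9, all below PBS, and its FWatb values from 22.5 through 41.4 to 49.8. ATB replicates 1 to 4 had 44, 61.6, 26.7 and 23.2, so ATB, PBS and FWatb overlapped. ID3 rested on few reads, with 2 to 32 raw counts in the FWctl libraries. ID2 (ENSG00000115738, chr2:8678845-8684461, plus strand) was the most abundant member and the flattest of the ID genes. Its PBS values were 912, 900.2, 944 and 1030, its FWctl values 744 to 1068 (median 818), its FWatb values 889 to 1181 (median 936) and its ATB values 935, 836, 1068 and 1054. All 4 groups overlapped. ID2 shares 145 of its 2213 exonic bases with ID2-AS1 on the opposite strand, which had 14 to 74 raw counts, and the sources do not say whether reads were counted by strand.

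The inhibitory SMADs were both lowest in FWctl cells. SMAD6, which mainly restrains BMP receptors (ENSG00000137834, chr15:66702236-66782849, plus strand), had 150.1, 144.6, 134 and 136.4 normalized counts in PBS samples. FWctl samples ran from 33.3 through a median of 55.7 to 84.1, FWatb samples from 108 through 120 to 133, and ATB samples had 163, 116, 116 and 113. FWctl lay below the other 3 groups, and FWatb lay just below PBS. SMAD7, which restrains both receptor branches (ENSG00000101665, chr18:48919853-48950965, minus strand), had 136.2, 153.4, 143.5 and 138.4 in PBS and 150.7, 140.6, 129.3 and 131.8 in ATB samples. Its FWctl values ran from 53.7 through 73.7 to 89.4 and its FWatb values from 85.5 through 101.5 to 129. FWatb was thus intermediate for SMAD7, overlapping FWctl slightly and lying below PBS.

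Of the ligands, TGFB1 had the clearest pattern. TGFB1 (ENSG00000105329, chr19:41301587-41353922, minus strand) had 39.8, 48.6, 32.8 and 52.4 normalized counts in PBS samples. FWctl samples ran from 8.46 through a median of 17.9 to 24.7, FWatb samples from 46.1 through 61.0 to 66.0, and ATB samples had 41.9, 75.1, 42.6 and 46.5. FWctl lay below all other groups, which overlapped each other. FWctl libraries held only 5 to 35 raw TGFB1 counts. TGFB1 shares 215 of its 3264 exonic bases with HNRNPUL1 on the opposite strand, and HNRNPUL1 moved the other way, with log2 fold changes of 0.42 for FWctl against PBS (edgeR's quasi-likelihood test, Benjamini-Hochberg adjusted p = 5.49e-06) and -0.37 for FWatb against FWctl (adjusted p = 3.12e-06).

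The BMP ligands varied less. BMP2 (ENSG00000125845, chr20:6767686-6780246, plus strand) had 246 ± 17.2 (SD, n = 4) normalized counts in PBS, 219 ± 34.7 (n = 6) in FWctl, 229 ± 31.4 (n = 7) in FWatb and 253.5 ± 19.8 (n = 4) in ATB cells. All groups overlapped, and BMP2 passed the threshold in 0 of 5 comparisons. BMP4 (ENSG00000125378, chr14:53949736-53958761, minus strand) had 137.2, 160.8, 142 and 141.1 in PBS samples and 183.5, 144.5, 151 and 176.9 in ATB samples. Its FWctl values ran from 114 through 135 to 142.5 and its FWatb values from 124 through 172 to 211, with 6 of the 7 FWatb samples above every FWctl and PBS sample. BMP4 shares 506 of its 3096 exonic bases with ENSG00000287156 on the opposite strand, which had 3 to 15 raw counts.

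GDF15 (ENSG00000130513, chr19:18374731-18389176, plus strand), the stress-induced member, ran against the rest. PBS samples had 316, 444, 347 and 380 normalized counts and ATB samples 332, 472, 346 and 380. FWctl samples ran from 421 through a median of 467.5 to 496 and FWatb samples from 359 through 419 to 459. FWctl was highest by mean, at 461 ± 33 (SD, n = 6) against 372 ± 54.7 (SD, n = 4) in PBS, with overlapping values.

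The first comparison asked what FW of untreated mice did to the cells. In FWctl against PBS, 6 of the 9 members passed an adjusted p of 0.05, of which 5 fell and 1 rose. Of all genes tested 46.4% passed (24.3% higher and 22.1% lower), so the share of members stood against a large background. SMAD6 fell by 1.28 on the log2 scale (SE 0.15, 95% interval -1.57 to -0.98, edgeR adjusted p = 1.12e-09) and TGFB1 by 1.26 (SE 0.21, adjusted p = 3.68e-06). ID1 fell by 1.04 (SE 0.15, adjusted p = 1.63e-07), SMAD7 by 0.99 (SE 0.13, adjusted p = 1.96e-08) and ID3 by 0.98 (SE 0.29, adjusted p = 0.00556). These falls leave between 0.413 and 0.509 of the PBS level. The same 5 members had no overlap between groups, as did 15.8% of all genes in that direction. Of them 3 (ID1, SMAD6 and TGFB1) also had an absolute log2 fold change above 1, against 13.2% of all genes in either direction. The median over the 9 members was -0.98, against 0.018 over all genes tested.

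GDF15 rose by 0.33 (SE 0.09, edgeR adjusted p = 0.00385), a fold of 1.25. That call was lost with all 22 samples (log2 fold change 0.21, adjusted p = 0.132), within the libraries rich in ribosomal RNA counts (0.21, adjusted p = 0.187) and without PBS replicate 1. ID2 (-0.16, 95% interval -0.34 to 0.016), BMP2 (-0.17, -0.39 to 0.047) and BMP4 (-0.15, -0.39 to 0.079) did not pass. Within the rRNA-rich and the rRNA-poor libraries, ID1 was lower by -1.17 and -0.98 on the log2 scale, SMAD6 by -1.29 and -1.36, SMAD7 by -0.96 and -1.11, and TGFB1 by -1.52 and -1.07, each with an edgeR adjusted p of 0.00362 or less. ID3 gave -1.51 (adjusted p = 0.00287) and -0.59 (adjusted p = 0.166). In the same comparison the summed markers of other cell types differed, at 38.4 to 76.6 normalized counts in FWctl against 226 to 271 in PBS samples for 5 fibroblast genes, and 51.3 to 62.7 against 95.5 to 133 for 5 leukocyte genes. For 3 endothelial genes the sums were 47.0 to 87.8 in FWctl and 69.6 to 79.8 in PBS samples. By group mean the sums were carried by PDGFRB (153 in PBS and 38.9 in FWctl cells), COL1A1 (87.5 and 12), LYZ (114 and 45.4), PECAM1 (62.6 and 30) and VWF (10.8 and 43.1). PTPRC, COL1A2, DCN and CDH5 had group means of at most 1.55 in every group. The part of these markers in the results was not tested.

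**Figure D2:**
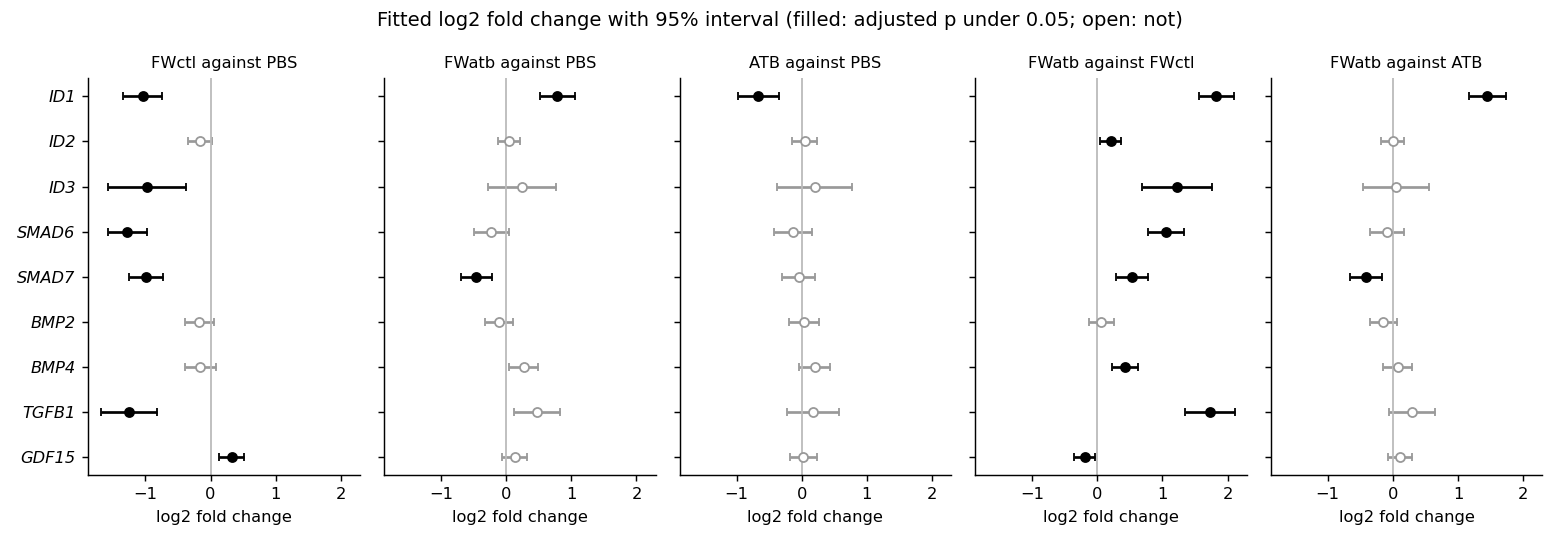
Fitted log2 fold changes (points) with 95% intervals (bars) of the 9 members in 5 comparisons, with filled points where the edgeR adjusted p was under 0.05. ID1 was past the threshold in all 5 panels and BMP2 in none, and the intervals of FWatb against FWctl lie mostly to the right of 0 where those of FWctl against PBS lie to the left. Both of these comparisons use the same FWctl samples, so their opposite directions are not independent.

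FWctl replicate 1, the sample left out, was mixed in its members. Its ID1 (130.3), ID2 (860.3), ID3 (16.3) and SMAD7 (63.5) lay within the range of the other 6 FWctl samples. SMAD6 (104) and TGFB1 (35.0) lay above that range, towards PBS. BMP2 (134), BMP4 (112) and GDF15 (305.5) lay below it. Against the 4 PBS samples 8 members were below the range, and TGFB1 was inside it.

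FW from antibiotic-treated mice gave fewer calls among the members than FW of untreated mice. A member that did not pass is not thereby shown to be at the PBS level. In FWatb against PBS, 2 of 9 members passed, against 9.99% of all genes tested. ID1 rose by 0.79 on the log2 scale (SE 0.13, 95% interval 0.52 to 1.06, edgeR adjusted p = 7.5e-05), 1.72-fold, with every FWatb sample above every PBS sample. SMAD7 fell by 0.46 (SE 0.12, adjusted p = 0.00852), to 0.728 of PBS. Groups did not overlap for ID1, SMAD7 and SMAD6, as for 6.86% of all genes in either direction, but the SMAD6 change (-0.22) had an adjusted p of 0.319. TGFB1 (0.47, adjusted p = 0.0838) and BMP4 (0.27, adjusted p = 0.117) did not pass. TGFB1 passed in a fit of the FWatb and PBS samples alone (0.47, adjusted p = 0.0499), and BMP4 passed without FWatb replicate 6 (adjusted p = 0.0217). Both also passed when library size alone was used for scaling (0.54, adjusted p = 0.038, and 0.34, adjusted p = 0.0346), a scaling under which 83.6% of the calls over all genes were higher, against 60.5% here. The median over the members was 0.13, against 0.00026 over all genes. In the libraries rich in ribosomal RNA counts alone, ID1 was 0.72 higher (adjusted p = 0.00623) and SMAD7 gave -0.48 (adjusted p = 0.0641). The comparison cannot be made in the other libraries, which hold no FWatb sample.

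The antibiotics on their own moved ID1 alone among the members. In ATB against PBS, ID1 fell by 0.67 (SE 0.16, 95% interval -0.98 to -0.35, edgeR adjusted p = 0.0489), to 0.63 of PBS, and the 4 ATB samples lay below the 4 PBS samples. Of all genes tested 0.285% passed, and 2.01% were lower without overlap. The call stood at the threshold. It was lost under 5 alternatives, with adjusted p between 0.0522 and 0.228, and when any of 14 of the 21 samples was left out (-0.78 to -0.57 on the log2 scale). In the fit blocked on replicate number the log2 fold change was -0.67 with an edgeR adjusted p of 0.00171. However, no source pairs ATB with PBS samples, which share only a number. The other 8 members had log2 fold changes from -0.14 to 0.20, with adjusted p of 0.744 or more.

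FWatb cells were also compared with ATB cells, which received the antibiotics without FW. In FWatb against ATB, 2 of 9 members passed, against 14.5% of all genes. ID1 rose by 1.45 (SE 0.14, edgeR adjusted p = 1.07e-09), 2.74-fold, and all 7 FWatb samples were above all 4 ATB samples, as 4.09% of all genes were. SMAD7 fell by 0.41 (SE 0.12, adjusted p = 0.0145). The SMAD7 call was lost with library size alone (-0.32, adjusted p = 0.0635) and without ATB replicate 1. ATB against PBS and FWatb against PBS moved ID1 in opposite directions, and these comparisons share the PBS samples.

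The FW of the same mice before and under antibiotics gave the most calls among the members, although the changes of SMAD6, SMAD7 and GDF15 were smaller than in FWctl against PBS. In FWatb against FWctl, 8 of 9 members passed, 7 higher and 1 lower, against 48.8% of all genes tested (23.4% higher and 25.4% lower). The FWctl samples are shared with FWctl against PBS, so opposite directions in these comparisons are not independent results. The same holds for the wider list below. ID1 rose by 1.83 on the log2 scale (SE 0.13, 95% interval 1.56 to 2.09, edgeR adjusted p = 2.56e-15), 3.55-fold, and TGFB1 by 1.73 (SE 0.19, adjusted p = 2.62e-10), 3.31-fold. ID3 rose by 1.22 (SE 0.26, adjusted p = 0.000147) and SMAD6 by 1.05 (SE 0.14, adjusted p = 1.59e-08). These 4 members passed the study's further threshold of an absolute log2 fold change above 1, as did 12.7% of all genes. SMAD7 rose by 0.53 (SE 0.12, adjusted p = 0.000283), BMP4 by 0.42 (SE 0.10, adjusted p = 0.000549) and ID2 by 0.20 (SE 0.08, adjusted p = 0.0269). ID1, SMAD6 and TGFB1 did not overlap between groups, as was so for 12.2% of all genes in that direction. BMP2 gave 0.061 (95% interval -0.13 to 0.26).

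GDF15 fell by 0.20 (SE 0.08, edgeR adjusted p = 0.0438) between FWctl and FWatb, a call lost under 7 alternatives (adjusted p 0.056 to 0.465) and when any of 18 of the 21 samples was left out. The ID2 call was lost in the libraries rich in ribosomal RNA counts (0.15, adjusted p = 0.141) and without FWatb replicate 7 or FWctl replicate 2, 3 or 4 (adjusted p up to 0.0977). The median over the members was 0.53, against -0.013 over all genes. With library size alone, 59.6% of the calls over all genes were higher, against 47.9% here. Among the libraries rich in ribosomal RNA counts, ID1 was 1.89 higher, TGFB1 1.96, ID3 1.76 and SMAD6 1.00, each with an edgeR adjusted p of 1.57e-05 or less.

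If equal replicate numbers mark the same mouse, which no source states, 6 mice gave both FW samples used here. On that reading, same-numbered samples were compared pair by pair. ID1, ID2, ID3, SMAD6 and TGFB1 were higher with FWatb in 6 of 6 pairs, SMAD7 and BMP4 in 5 of 6, BMP2 in 4 of 6 and GDF15 in 1 of 6. The share of all genes higher in 6 of 6 pairs was not computed. In the unpaired comparison 23.4% of all genes passed as higher, so these counts do not set the members apart. An exact two-sided sign-flip permutation test gave p = 0.03125 for the first 5 genes, the smallest p that 6 pairs allow, and 0.0562 after Benjamini-Hochberg adjustment over the 9 members. The log2 ratio within pairs ran from 1.45 to 2.39 for ID1, from 1.27 to 2.71 for TGFB1, from 0.91 to 2.42 for ID3 and from 0.51 to 1.87 for SMAD6.

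**Figure D3:**
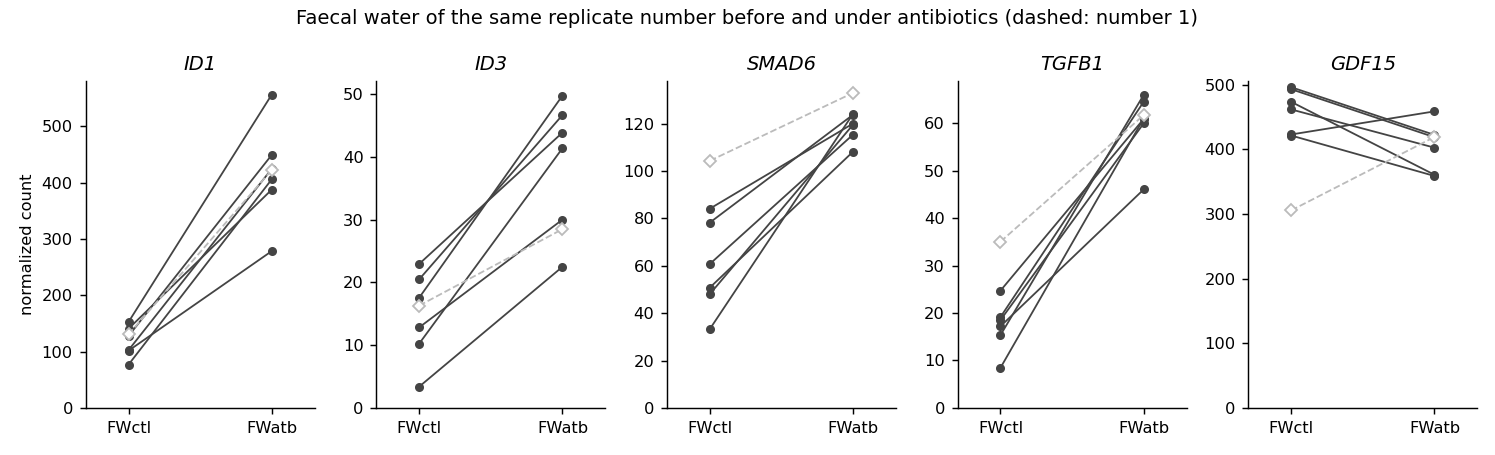
Normalized counts (vertical axes, from 0) of 5 members in FWctl and FWatb samples of the same replicate number, joined by lines, with number 1 dashed. ID1, ID3, SMAD6 and TGFB1 rose along all 6 solid lines, and GDF15 fell along 5 of them.

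The wider pathway held 68 further listed genes, of which 51 were tested. In FWctl against PBS 27 of the 51 passed (52.9%, against 46.4% of all genes), 11 higher and 16 lower, with a median of -0.12 against 0.018 over all genes tested. Over all genes tested, 24.3% passed as higher and 22.1% as lower. By role, 5 of 13 receptors were higher and 3 lower, and of 8 extracellular binders 1 was higher and 5 lower. Of 13 ligands 1 was higher and 4 lower, a called share of 38.5% that lay below that of all genes. These roles hold few genes each, and their directions were not tested. Of 6 SMAD transducers 1 was higher and 2 were lower, of 8 inhibitors 3 and 1, and of 3 targets 0 and 1.

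INHBE, the activin beta E subunit, a hepatokine gene known to respond to stress of the endoplasmic reticulum, changed by far more than any member. It had 10.9 to 24.9 normalized counts in PBS and 8.31 to 22.7 in FWatb samples, 13.5 to 21.7 in ATB samples, and 1386 to 1777 (median 1573) in FWctl samples. It rose by 6.52 on the log2 scale in FWctl against PBS (SE 0.15, edgeR adjusted p = 4.08e-31) and fell by 6.43 in FWatb against FWctl (SE 0.12, adjusted p = 1.98e-34). The other 3 groups overlapped. INHBE shares 499 of its 3046 exonic bases with ENSG00000287200 on the opposite strand.

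Among receptors, ACVR1C, the activin receptor ALK7, fell by 1.72 in FWctl against PBS (SE 0.20, edgeR adjusted p = 1.48e-09), from 71.0 ± 3.99 (SD, n = 4) to 21.1 ± 10.2 (SD, n = 6) normalized counts. TGFBR3, the betaglycan co-receptor, fell by 1.17 (SE 0.07, adjusted p = 6.52e-17), from 1169 ± 66.1 to 518 ± 24.9. BMP8A fell by 1.04 (SE 0.13, adjusted p = 7.41e-09), although it is nearly identical to BMP8B and reads may be split between them. BMP8A also shares 416 of its 5636 exonic bases with PPIEL on the opposite strand. BAMBI, a decoy receptor that blocks the signal, rose by 0.71 (SE 0.09, adjusted p = 9.51e-09), from 220 ± 10.6 to 360 ± 35.0. RGMB, a BMP co-receptor, rose by 0.70 (SE 0.14, adjusted p = 6.65e-05), and 3045 of its 6643 exonic bases are shared with RGMB-AS1 and ENSG00000279232 on the opposite strand.

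In FWatb against PBS 5 of 51 passed (9.80%, against 9.99% of all genes), 3 higher and 2 lower, with a median of -0.064. SMAD1, a BMP transducer, rose by 0.39 (SE 0.11, edgeR adjusted p = 0.021). LTBP2, a matrix protein of the latent TGF-beta binding family, fell by 0.48 (SE 0.13, adjusted p = 0.0115), and TGFBI, a TGF-beta-induced matrix protein, by 0.25 (SE 0.07, adjusted p = 0.0207). TGFBI was the lower of the called targets, and of 3 targets tested 1 was also called higher. That higher target had a mean below 50 normalized counts and is not named. It was the only list gene with an absolute log2 fold change above 1, as 115 of 20373 genes had. On the opposite strand SMAD1 shares 376 of its 7094 exonic bases with SMAD1-AS1, and LTBP2 shares 207 of its 9078 with ENSG00000258425. The SMAD1 and TGFBI calls were lost when any of 4 and 3 samples, respectively, was left out. They were also lost with all 22 samples (adjusted p = 0.0727 and 0.0734), in the libraries rich in ribosomal RNA counts (0.138 and 0.22) and with the library set as a covariate (0.14 and 0.0675). TGFBI was further lost with library size alone (0.157) and with no filter (0.0568), and LTBP2 in the libraries rich in ribosomal RNA counts (0.084). In ATB against PBS 1 of 51 passed, TWSG1, an extracellular BMP modulator, which rose by 0.38 (SE 0.08, adjusted p = 0.0292) and was lost when any of 10 samples was left out, with library size alone, with all 22 samples and in the libraries poor in ribosomal RNA counts (adjusted p = 0.0769 to 0.269). Against the background of 0.285%, this is 1.96% of the list, and 2 genes passed in the fit blocked on replicate number.

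In FWatb against FWctl 32 of the 51 passed (62.7%, against 48.8% of all genes), 19 higher and 13 lower, with a median of 0.079 against -0.013. ACVR1C rose by 1.60 (SE 0.19, edgeR adjusted p = 1.45e-09) and TGFBR3 by 1.13 (SE 0.07, adjusted p = 5.29e-18). SMAD5, a BMP transducer, rose by 1.00 (SE 0.06, adjusted p = 4.72e-17), from 2767 ± 175 (SD, n = 6) to 5543 ± 361 (SD, n = 7). SMAD5 shares 610 of its 9040 exonic bases with SMAD5-AS1, ENSG00000275646 and ENSG00000277524, and 179 of these are shared on the same strand. BAMBI fell by 0.94 (SE 0.08, adjusted p = 2.79e-13) and ACVR1, a type I BMP receptor, by 0.63 (SE 0.12, adjusted p = 2.62e-05). In FWatb against ATB 12 of 51 passed (23.5%, against 14.5%), 4 higher and 8 lower. SMAD1 rose by 0.51 (SE 0.12, adjusted p = 0.00151), a call lost with the library set as a covariate (0.38, adjusted p = 0.0932). TGFBI fell by 0.52 (SE 0.07, adjusted p = 1.33e-06), BMP8B by 0.54 (SE 0.10, adjusted p = 0.000109) and LTBP2 by 0.46 (SE 0.13, adjusted p = 0.0114). BMP8B shares 80 of its 4826 exonic bases with PPIE on the opposite strand. BMP7, a BMP ligand, rose by 0.30 (SE 0.10, adjusted p = 0.0399), a call lost when any of 12 samples was left out, with all 22 samples and with the library set as a covariate (adjusted p = 0.12 and 0.22). The LTBP2 call was lost without ATB replicate 4 and with library size alone (adjusted p = 0.0524).

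**Figure D4:**
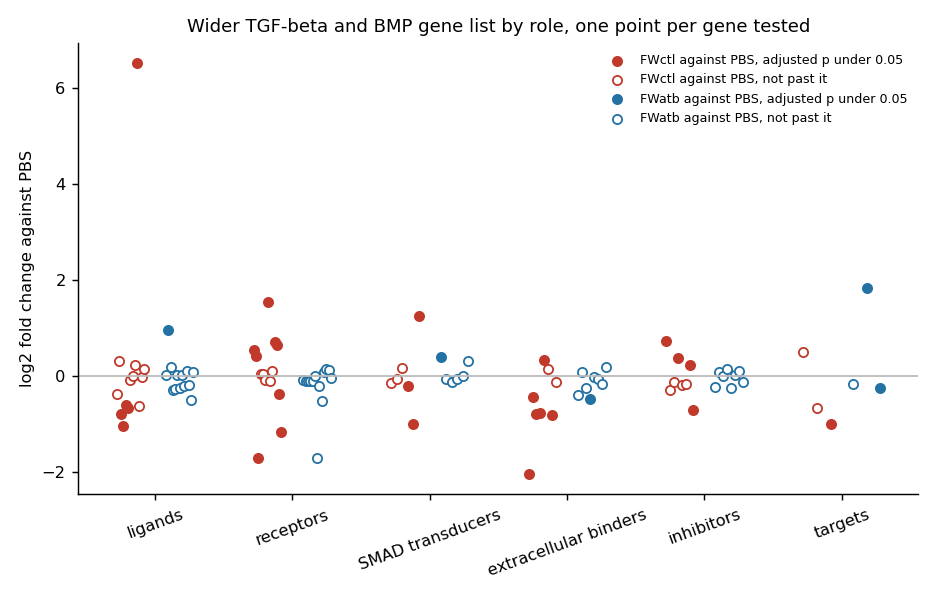
Fitted log2 fold change against PBS (vertical axis) of the 51 tested genes of the wider list, by role, in red for FWctl and blue for FWatb, filled where the edgeR adjusted p was under 0.05. INHBE stands alone at 6.52 for FWctl, and 5 blue points are filled against 27 red ones.

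The genes whose 3 log2 fold changes against PBS were closest to those of each member were sought among 9306 genes, by Euclidean distance. The 3 changes share the PBS samples, and a small distance is common for members that changed little. For ID1 the closest were DUSP6 (distance 0.396), SPRY4 (0.533) and CPNE7 (0.534), the largest nearest distance among the members. DUSP6 had log2 fold changes of -0.67 in FWctl, 0.88 in FWatb and -0.59 in ATB cells. For TGFB1 they were LRP2 (0.112), TRIP13 (0.209) and PCLAF (0.218), and for ID3 RRM2 (0.0506), PTDSS1 (0.0833) and BRI3BP (0.0983). For SMAD6 the closest was TBKBP1 (0.015), for SMAD7 ST6GALNAC4 (0.0607), for ID2 KIAA1217 (0.0107), for BMP2 PPP1R3D (0.0203), for BMP4 ANKLE2 (0.0289) and for GDF15 RNF20 (0.0179).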

How the data were processed

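RNA was sequenced after ribosomal RNA depletion with a stranded total RNA kit. Per the labels and methods, the authors trimmed reads with Trimmomatic 0.38, aligned them to GRCh38 with HISAT2 2.1.0 and assigned them to Ensembl genes with featureCounts (Subread 2.0.0). The deposited values are raw counts, not normalized. Symbols, coordinates and exon lengths came from GENCODE release 44, in which 61369 of 61487 identifiers were found. Counts were fitted here with edgeR 4.0.16 (R 4.3.3) in 1 model of 4 groups and 21 samples, with TMM scaling and the quasi-likelihood test, and p-values were adjusted by Benjamini-Hochberg over the 20373 genes with more than 5 counts in 3 samples or more. The standard error is the log2 fold change divided by the root of F. The members and lists were chosen with earlier results of these data known. From the wider list, the largest called changes were named, up to 3 in each direction, where the mean was 50 normalized counts or more.

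The study used FW of the same mice in FWctl and FWatb cells, but no source ties replicate numbers to mice. Equal numbers were read here as the same mouse, which is an inference. Deviations of same-numbered FWctl and FWatb samples from the group means correlated at -0.02 to 0.40. Of these 6 pairs 4 correlated best with their own number, and the block changed no member's call. ATB and PBS samples share only a number, and no source pairs them. The deviations of same-numbered ATB and PBS samples correlated at 0.10 to 0.41, and 2 of 4 ATB samples correlated best with their own number. Those numbered 2, 3 and 4 were also of the same library kind in both groups, which cannot be told apart from pairing. The block gave 315 calls over all genes against 58. On simulated data for FWctl against PBS (19727 genes), 100 of 100 genes changed by a log2 of 2 and 97 of 100 changed by a log2 of 1 were recovered, with 5 false calls. Only 200 genes were changed there, whereas 46.4% of genes passed in the real comparison. The simulation therefore does not show how the scaling and the false calls behave when so many genes change. Alternatives were DESeq2 1.42.0, its size factors, library size alone, other filters, all 22 samples, the 2 groups alone, the replicate block, library sets, a fold threshold and each replicate left out. Fits within the libraries poor in ribosomal RNA counts were added after the data were seen. Some results are not reported here.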

Additional observations from a re-analysis of the deposited data

Results flagged for a closer look

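In 5 of 36 groups of samples of a member, the highest or lowest sample stood apart from the rest by Dixon's 95% criterion, where chance gives about 1.8. The ID2 normalized count of FWatb replicate 7 was 1181, against 889 to 999 in the other 6. The ID2 rise of FWatb against FWctl lost its call without this sample. The SMAD6 normalized count of ATB replicate 1 was 163, against 113 to 116 in the other 3, and the BMP2 normalized count of ATB replicate 4 was 224, against 261 to 267. The TGFB1 normalized count of FWatb replicate 3 was 46.1, from 42 raw counts, against 60.0 to 66.0 in the other 6, and still lay above all FWctl samples. The TGFB1 normalized count of ATB replicate 2 was 75.1, from 39 raw counts, against 41.9 to 46.5 in the other 3. No cause was tested.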

How the results depend on the processing

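Called log2 fold changes of named genes were recomputed 405 times without leaving out a replicate. They kept their sign each time, 369 kept their call and 36 lost it. Of 9 members, called counts in FWctl against PBS, FWatb against PBS, ATB against PBS, FWatb against FWctl and FWatb against ATB were 6, 2, 1, 8 and 2. Over all genes tested the calls were 9450, 2035, 58, 9942 and 2958. With an absolute log2 fold change above 1 the member counts were 3, 0, 0, 4 and 1, and of the wider list 9, 1, 0, 7 and 2 genes. Over all genes they were then 2681, 115, 7, 2590 and 216. Library size alone gave 4 members in FWatb against PBS, 0 in ATB against PBS and 1 in FWatb against ATB, and 0 list genes in ATB against PBS. Over all genes it gave 2501, 14 and 3386 calls in these 3 comparisons. With all 22 samples no member and no list gene passed in ATB against PBS (0 each, and 5 of all genes), and 3 list genes in FWatb against PBS (1227 of all genes). With the library set as a covariate 0 members passed in ATB against PBS (41 of all genes) and 3 list genes in FWatb against PBS (1727 of all genes). The stricter filter gave 0 members in ATB against PBS, no filter gave 3 list genes in FWatb against PBS, and DESeq2 gave 3 list genes in ATB against PBS. Over all genes these settings gave 73, 1758 and 139 calls. Libraries rich in ribosomal RNA counts alone gave 1 member and 1 list gene in FWatb against PBS (1127 of all genes) and hold too few ATB samples for the ATB comparison. Libraries poor in them gave 0 members and 0 list genes in ATB against PBS (23 of all genes).

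With the replicate block, 1 member passed in FWatb against ATB, where the calls of SMAD7 (-0.35, adjusted p = 0.102) and LTBP2 (-0.39, adjusted p = 0.0662) were lost. In FWatb against PBS 3 members passed, BMP4 among them (0.40, adjusted p = 0.00737). The block gave 2 list genes in ATB against PBS and 8 members in FWctl against PBS, where ID2 was -0.37 (adjusted p = 0.00291) and BMP2 -0.35 (adjusted p = 0.0232). Over all genes its calls rose from 2035 to 3229 in FWatb against PBS and from 58 to 315 in ATB against PBS. They went from 2958 to 3059 in FWatb against ATB and from 9450 to 7817 in FWctl against PBS. FWctl and PBS numbers correlated at -0.24 to 0.18 and share only a number, as do FWatb and PBS (0.03 to 0.10) and FWatb and ATB (-0.11 to 0.17). In no comparison did every sample correlate best with its own number.

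With each sample left out in turn, called members ranged from 5 to 7, 2 to 3, 0 to 1, 6 to 8 and 1 to 2 in the 5 comparisons, and called list genes from 25 to 28, 3 to 6, 0 to 1, 30 to 34 and 9 to 14. Values that changed sign were those of uncalled members near 0. For ID2 they were -0.039 in FWatb against PBS with the block, and 0.087 with library size alone, 7.58e-05 with only the groups compared and 0.0075 with the library set as a covariate in FWatb against ATB. In the libraries poor in ribosomal RNA counts, ATB against PBS gave -0.031 for ID3, -0.027 for BMP2 and -0.057 for GDF15. Leaving out a sample gave -0.011 to 0.095 in ATB against PBS, -0.056 to 0.048 in FWatb against ATB and -0.0094 to 0.085 in FWatb against PBS for ID2. It gave -0.025 to 0.083 in ATB against PBS and -0.0045 to 0.13 in FWatb against FWctl for BMP2, and -0.078 to 0.096 in ATB against PBS for GDF15. For ID3 it gave -0.017 to 0.38 in ATB against PBS and -0.14 to 0.26 in FWatb against ATB, and for SMAD6 -0.14 to 0.068 in FWatb against ATB. The cause was not tested. TGFB1 and ID3 had at most 35 and 32 raw counts in the FWctl libraries, which limits their precision.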

Other observations

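Some genes of the wider list had changes above those named but a mean below 50 normalized counts, and these were chosen after their values were seen. BMP6, a BMP ligand, had 22.5 ± 5.73 (SD, n = 7) in FWatb, against 11.7 ± 2.85 (SD, n = 4) in PBS cells. CHRD, a secreted BMP antagonist, had 5.60 ± 1.81 (SD, n = 6) in FWctl against 24.1 ± 2.53 (SD, n = 4) in PBS cells. On the opposite strand BMP6 shares 212 of its 3784 exonic bases with TXNDC5 and BLOC1S5-TXNDC5, and CHRD shares 361 of its 6639 with THPO. SMAD9, a BMP transducer, had 34.1 ± 8.87 in FWctl against 14.2 ± 4.49 in PBS cells. BMPR1B, a type I BMP receptor, had 9.25 ± 3.20 in FWctl and 0.837 ± 1.14 in FWatb cells, from 0 to 2 raw counts in the FWatb libraries.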
